A study of Sus scrofa with 8 samples.

Results

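The genes described are those of the MHC class II chains, the surface proteins that present peptides to helper T cells, as read in whole blood of miniature pigs by expression arrays. Probes were chosen by name or description and not by value. A probe belonged to the set when its gene name was SLA-DQB1 or began with SLA-D, or when its description named MHC class II or a class II histocompatibility antigen. This gave 11 of the 41325 gene names on the arrays, read by 19 of the 43603 non-control probes. Of the 19 probes, 12 carry the name of an SLA-D gene: 2 for SLA-DMA, 1 for SLA-DQB1, 4 for SLA-DRA and 5 for SLA-DRB1. The other 7 are transcript clusters found by their description only.

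Blood came from 8 female Clawn miniature pigs, a small breed, labelled as conventional animals and aged 8 to 9 months. The SDW animals (n = 4) ate a mash of standard dry feed, water and shochu distilled water (SDW, named after the Japanese spirit shochu) in equal weights, and the control animals (n = 4) ate standard dry feed. The design text puts sampling at 12 weeks of feeding, while the descriptions of the single samples state 14, 15, 16 and 17 weeks for replicates 1, 2, 3 and 4 of either diet. Each animal gave 1 array read in 1 colour. Because blood was not sorted, fewer cells of a type and less RNA per cell cannot be told apart.

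A class II molecule pairs an alpha chain with a beta chain. SLA-DRA encodes the alpha chain and SLA-DRB1 a beta chain of the DR molecule, SLA-DQB1 encodes the beta chain of the DQ molecule, and SLA-DMA encodes the alpha chain of DM, which stays inside the cell and helps DR and DQ exchange the invariant chain fragment CLIP for a peptide. In blood these molecules are known from B cells, monocytes and dendritic cells, and in the pig also from a share of the T cells. The beta chains are among the most polymorphic genes of a mammal, so a probe can match the alleles of some animals better than those of others.

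The probes are 60 bases long, and all 19 are listed as unmapped in the scanner files. A probe is called here by the gene and the start position that the file gives for it on the source transcript. Among the 5 SLA-DRB1 probes, 2 pairs overlap and differ at a single base, so they are shown with that base in capitals. The first pair overlaps over 47 bases, and its difference is A20G, counted from 1 at the 5′ end of the start 718 probe. Both probes are given whole.
SLA-DRB1 start 718: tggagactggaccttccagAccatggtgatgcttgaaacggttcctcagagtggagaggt
SLA-DRB1 start 731: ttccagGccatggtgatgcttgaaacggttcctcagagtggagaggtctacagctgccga
The second pair overlaps over 34 bases, and its difference is T48C, counted from 1 at the 5′ end of the start 1246 probe. The 30 bases around it are given.
SLA-DRB1 start 1246: tccactgcccatattacTttattatgtttt
SLA-DRB1 start 1272: tccactgcccatattacCttattatgtttt
All 4 name the same source transcript, so at most 1 probe of each pair can match that transcript at the base that differs. SLA-DQB1 rests on a single probe, and its middle 30 bases, 16 to 45, are shown because the diet difference of largest size among the named class II probes was read there. The probe of SLA-DRA nearest the 5′ end follows whole, for the pair of ends compared further on.
SLA-DQB1 start 1097: aagggattttcctgttcctattttccctca
SLA-DRA start 395: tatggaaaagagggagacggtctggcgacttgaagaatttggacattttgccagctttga
No other probe of the array was found to overlap a class II probe by 25 bases or more with at most 4 differences, on either strand. Only probes that shared a short exact run of bases with a class II probe were compared, so overlaps with more scattered differences could be missed.

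Of the 19 probes, 13 rose well above background on 4 or more arrays, the condition for testing that 17352 probes met in all. They are all 12 named probes, each well above background on 8 of 8 arrays, and the cluster TC286985, above it on 3 of 4 SDW arrays and 3 of 4 control arrays. Another cluster, TC260249, was above background on 2 of 4 SDW arrays and 0 of 4 control arrays. The remaining 5 clusters were above it on 0 of 8 arrays. No class II spot was saturated. Levels below are log2 intensities after subtraction of each array's own 75th percentile, and a difference is the SDW mean minus the control mean on that scale. Levels of different probes are not compared, only how each deviates from its own mean.

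The share of probes well above background ran between 35.2% and 43.5% over the arrays. Each of the 3 slides held both diets: slide 1 carried SDW 2, SDW 3 and control 3, slide 2 carried SDW 1, control 2 and control 4, and slide 3, scanned on a separate day, carried SDW 4 and control 1. Markers of blood cells were present, with kept probes for 6 T cell, 7 monocyte and 6 neutrophil genes. Of the 17 listed erythroid genes only 1 was named on the array, and it had no kept probe. Just 2980 of the 43603 probes could be given a gene symbol. A listed gene without a kept named probe is therefore not shown to be absent from the blood.

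No class II probe passed the test between the diets. With limma and Benjamini-Hochberg adjustment over all kept probes, 0 of the 13 class II probes had an adjusted p under 0.05, against 0 of 17352 (0%) overall. At an unadjusted p under 0.05 the count was 1 of 13, the SLA-DQB1 probe, against 1.45% of all kept probes in both directions and 0.519% lower in SDW animals. None of the 13 kept class II probes had groups that did not overlap, against 0.985% of all kept probes. A difference of 1 or more in size was found at 1 of 13, again SLA-DQB1, against 1.1% of all kept probes. The SDW mean was the higher one for 9 of the 13, against 52.9% of all kept probes, and the lower one for 4. The 13 probes read only 5 genes or clusters, so they are not separate observations. All 5 SLA-DRB1 probes and both SLA-DMA probes are among the 9. The median difference over the 13 was 0.21, against 0.018 over all kept probes, and the median size of the difference without its sign was 0.23, against 0.17. Within slide 1, the median over the 13 was -0.32, and without control 4 it was 0.031.

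**Figure D1:**
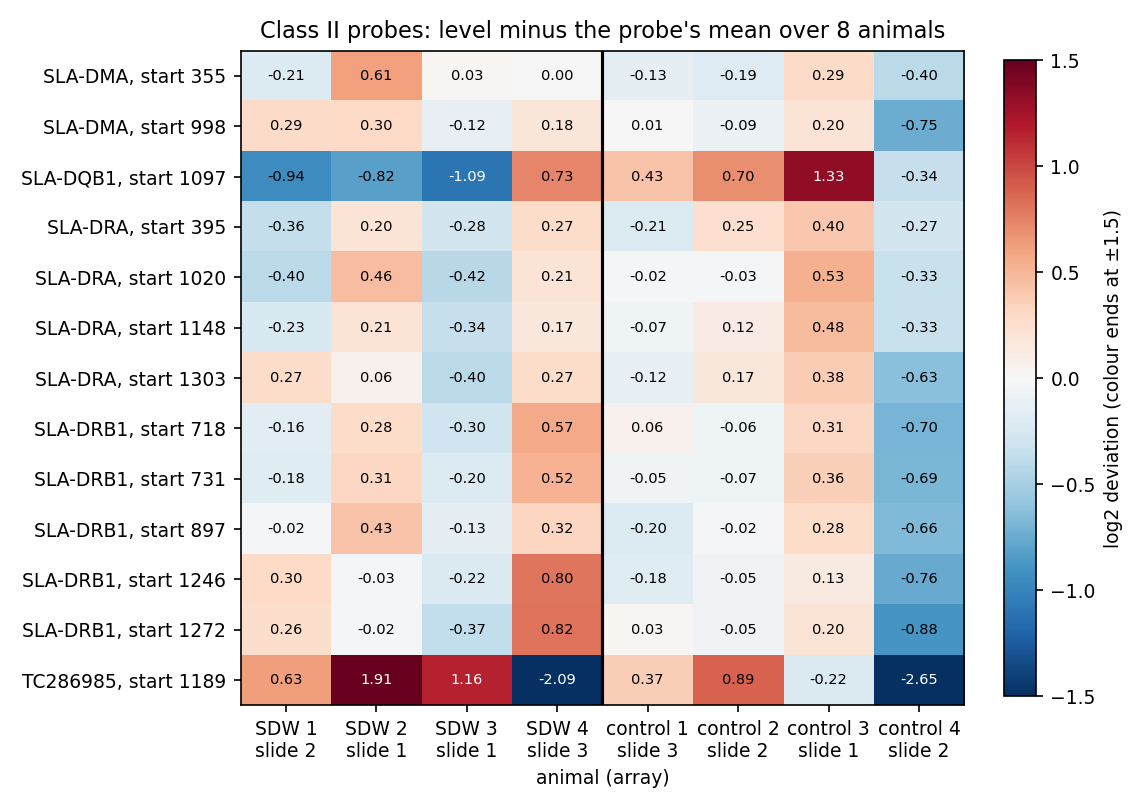
Heat map of the deviation of each kept class II probe (13 rows, gene and start position) from its own mean over the 8 arrays, in log2 units with the value in each cell and colours ending at 1.5 either way, for SDW animals 1 to 4 on the left and control animals 1 to 4 on the right. SLA-DQB1 is below its mean in SDW 1, SDW 2, SDW 3 and control 4, while the DRA, DRB1 and DMA probes are mostly lowest in control 4 and SDW 3.

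SLA-DQB1, the beta chain of DQ, was lower in 3 of the 4 SDW animals than in every control animal, and SDW 4 was above all animals but control 3. Its level was 7.01, 7.12, 6.85 and 8.68 in SDW 1, 2, 3 and 4, against 8.37, 8.65, 9.27 and 7.61 in control 1, 2, 3 and 4. The groups therefore overlapped through SDW 4, which stood above 3 of the 4 control animals. The means were 7.41 ± 0.85 in SDW animals and 8.47 ± 0.69 in control animals (SD, n = 4 each). The difference was -1.06 (SE 0.47), with an unadjusted p of 0.0467 and an adjusted p of 1.00 in limma. An exact permutation test over the 70 assignments of the animals, two-sided, gave p = 0.114, where the smallest possible is 0.0286.

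SLA-DQB1 differed between slides in the size and direction of the diet difference. Within slides 1, 2 and 3 the differences were -2.29, -1.12 and 0.31. On slide 3, with 1 animal of each diet, the SDW animal was therefore the higher one. With slide as a fixed block in limma the difference was -1.15 (SE 0.43), with an unadjusted p of 0.0248 and an adjusted p of 0.732, and 6.59% of all kept probes had an unadjusted p under 0.05 in that fit. Without both slide 3 arrays it was -1.52, with an adjusted p of 0.998 in limma. Leaving out single animals moved it between -1.48, without SDW 4, and -0.79, without control 3.

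**Figure D2:**
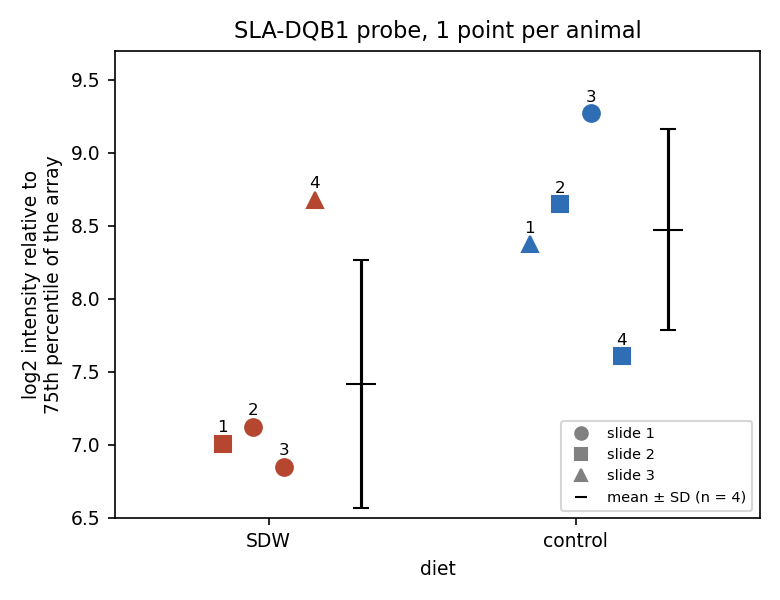
Level of the SLA-DQB1 probe in each animal (numbered points, shaped by slide), in log2 units relative to the 75th percentile of the array, SDW left of control, with the group mean ± SD (n = 4) as a bar. On this plot, 3 SDW animals sit between 6.85 and 7.12 and SDW 4 sits at 8.68, while the control animals run between 7.61 and 9.27.

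SLA-DRA, the alpha chain of DR, hardly differed between the diets relative to its spread. At the start 395 probe the level was 2.29, 2.85, 2.37 and 2.92 in the SDW animals, against 2.45, 2.90, 3.06 and 2.39 in the control animals. At the start 1303 probe, its brightest, the level was 8.39, 8.18, 7.72 and 8.39 in the SDW animals, against 8.00, 8.29, 8.50 and 7.49 in the control animals. At both probes the groups overlapped, and control 4 was among the 3 lowest animals. The differences at starts 395, 1020 and 1148 were -0.089, -0.075 and -0.098, and at start 1303 it was 0.10, with SE between 0.26 and 0.29. The intervals of 1 SE around all 4 include 0, and each of the 4 changed its sign when some single animal was left out.

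SLA-DRB1, the beta chain that pairs with SLA-DRA, had the higher mean in SDW animals at all 5 probes, and none passed the test. Its difference was 0.19 at start 718, 0.23 at start 731, 0.30 at start 897, 0.43 at start 1246 and 0.35 at start 1272. At start 1246, the largest of these, the level was 8.98, 8.64, 8.45 and 9.48 in the SDW animals, against 8.50, 8.62, 8.81 and 7.91 in the control animals. SDW 4 was the highest animal and control 4 the lowest, and the other SDW and control animals were interleaved. The limma fit gave an SE of 0.30 and an unadjusted p of 0.181 there. The 5 probes read 1 gene in the same animals and are not 5 separate observations. Without control 4 the 5 differences lay between -0.0066 and 0.25, and within slide 1 they were negative at all 5 probes, between -0.13 and -0.40.

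SLA-DMA, the alpha chain of the peptide exchange molecule DM, also had the higher mean in SDW animals at both probes. At start 998 the level was 7.99, 8.00, 7.58 and 7.88 in the SDW animals, against 7.71, 7.61, 7.90 and 6.95 in the control animals. The difference was 0.32 (SE 0.26), with an unadjusted p of 0.247 in limma, and 0.12 without control 4. Of the 4 control animals, control 4 stood apart at the low end, and the others lay within the range of the SDW animals. At start 355 the difference was 0.21 (SE 0.26), 0.043 without SDW 2, 0.11 without control 4 and 0.073 with slide as a fixed block. Slide accounted for 71.5% of the variance of that probe over the 8 arrays.

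TC286985 is a cluster that the file describes only as partly similar to a bird class II beta chain, so no pig gene is named for it. Its level was -0.64, 0.63, -0.11 and -3.36 in the SDW animals, against -0.91, -0.38, -1.49 and -3.93 in the control animals. The lowest animal of each diet was replicate 4, and the other 3 of each diet overlapped. The difference was 0.80 (SE 0.93), but SDW 4 and control 4 were not well above background, so 1 array of each diet gives only a bound. It was 1.64 without SDW 4, 0.30 without SDW 2, 0.054 without control 4, and 0.28 and 0.24 with normexp background correction under the percentile and the quantile scaling.

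**Figure D3:**
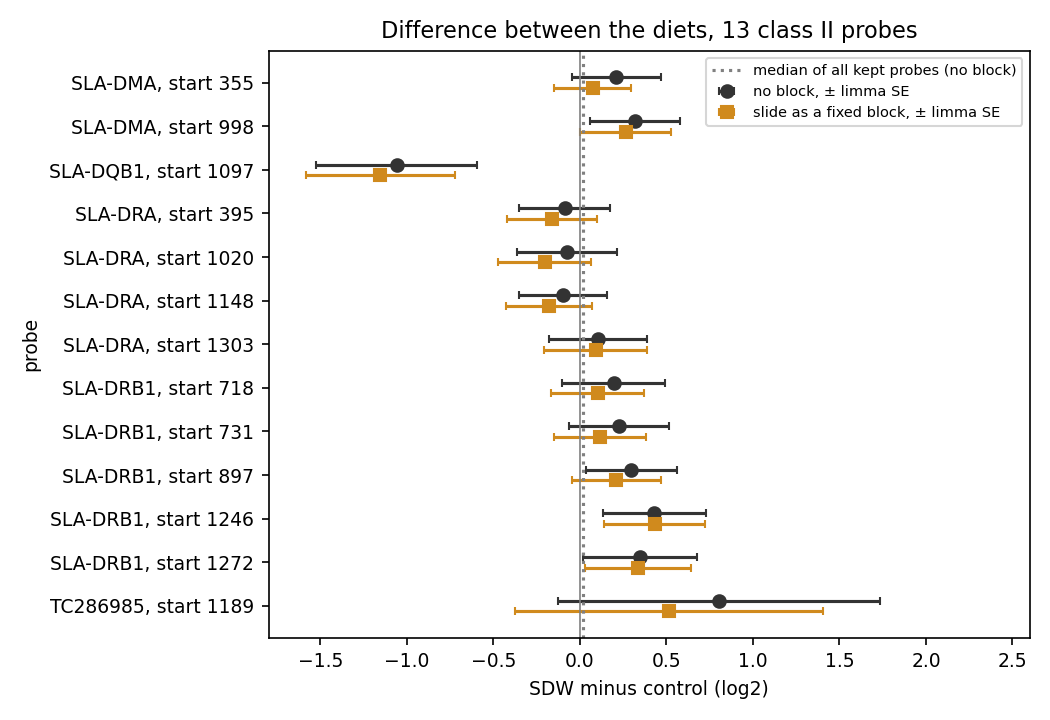
SDW minus control difference of the 13 kept class II probes in log2 units, without a block (circles) and with slide as a fixed block (squares), with bars of 1 limma SE on each side and the median of all kept probes as a dotted line. SLA-DQB1 lies at -1.06 without and -1.15 with the block, and the 5 SLA-DRB1 probes lie between 0.19 and 0.43 without it.

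How the class II probes spread over the animals is given beside the same over all kept probes, as a description. The median SD of the 13 probes over the 8 arrays was 0.375, against 0.418 over all kept probes, and slide accounted for a median of 26.0% of their variance, against 44.7% over all kept probes. Diet accounted for a median of 9.59%, against 4.97%. Means of a few arrays always differ somewhat, so these uncorrected shares are positive even without an effect of diet or slide. SLA-DQB1 had the widest spread of the 12 named probes, with an SD of 0.914, above that of 91.3% of all kept probes. Of its variance, diet accounted for 38.5% and slide for 15.4%.

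SLA-DQB1 shared its highest animal, control 3, with all 4 SLA-DRA probes and its lowest, SDW 3, with SLA-DRA starts 1020 and 1148, and neither with any SLA-DRB1 probe. Among the 12 named probes, control 4 was the lowest animal at 8, SDW 3 at 3 and SDW 1 at 1, while control 3 was the highest at 5, SDW 4 at 4 and SDW 2 at 3. Averaged over its probes, SLA-DRB1 deviated from its own mean by 0.04, 0.19, -0.24 and 0.61 in the SDW animals, against -0.07, -0.05, 0.26 and -0.74 in the control animals. For SLA-DQB1 the same values were -0.94, -0.82, -1.09 and 0.73 in the SDW animals, against 0.43, 0.70, 1.33 and -0.34 in the control animals. Both genes were above their means in SDW 4 and control 3 and below them in SDW 3 and control 4. They took opposite signs in SDW 1 and SDW 2, where SLA-DQB1 was below its mean, and in control 1 and control 2, where it was above it.

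The gap between SLA-DQB1 and each of the other 3 class II genes was compared between the diets. The SLA-DQB1 deviation minus that of the leading SLA-DRB1 probe was -1.24, -0.79, -0.87 and -0.07 in the SDW animals, against 0.61, 0.76, 1.19 and 0.42 in the control animals, so all 4 SDW animals lay below all 4 control animals. This held for 1 of the 3 gaps, and the gap of SLA-DQB1 to a probe outside class II did not overlap between the diets, in either direction, for 1.96% of 17330 kept probes. The gap to SLA-DRB1 given here was read at its start 1246 probe alone, and the separation depended on the probe. At start 897 SLA-DRB1 deviated by 0.32 in SDW 4 and -0.66 in control 4, against 0.73 and -0.34 for SLA-DQB1. The gap to start 897 was thus higher in SDW 4 than in control 4, and the diets overlapped. With starts 718, 731 and 1272 they did not overlap. The difference in the gap to start 1246 was -1.49. Its exact permutation p was 0.0286, two-sided, the smallest that 70 assignments can give. Against the leading SLA-DRA probe it was -1.16 (exact permutation p = 0.0571) and against the leading SLA-DMA probe -1.38 (exact permutation p = 0.0857). After Benjamini-Hochberg adjustment over these 3 gaps, all 3 exact permutation p-values were 0.0857, above the threshold. The difference in the gap to SLA-DRB1 start 1246 was -2.03, -1.83 and -0.68 within slides 1, 2 and 3. These gaps were chosen after the values of the single genes were seen, and whether alleles that the single SLA-DQB1 probe reads differently take part was not tested.

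Probes of 1 gene were compared for signs that they read the animals' alleles differently. The gap between 2 SLA-DRB1 probes had an SD over the 8 animals between 0.0637 and 0.315 over 10 pairs, with a median of 0.244. The lowest SD was that of the overlapping probes at starts 718 and 731, whose letters are given above, and the overlapping probes at starts 1246 and 1272 had an SD of 0.111. With normexp background correction and the percentile scaling the SD of the first pair was 0.136, above that of starts 731 and 897 at 0.123, so the first pair was then not the lowest, and the cause of that change was not tested. Over 6 SLA-DRA pairs the SD lay between 0.103 and 0.334, and for the single SLA-DMA pair it was 0.284.

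**Figure D4:**
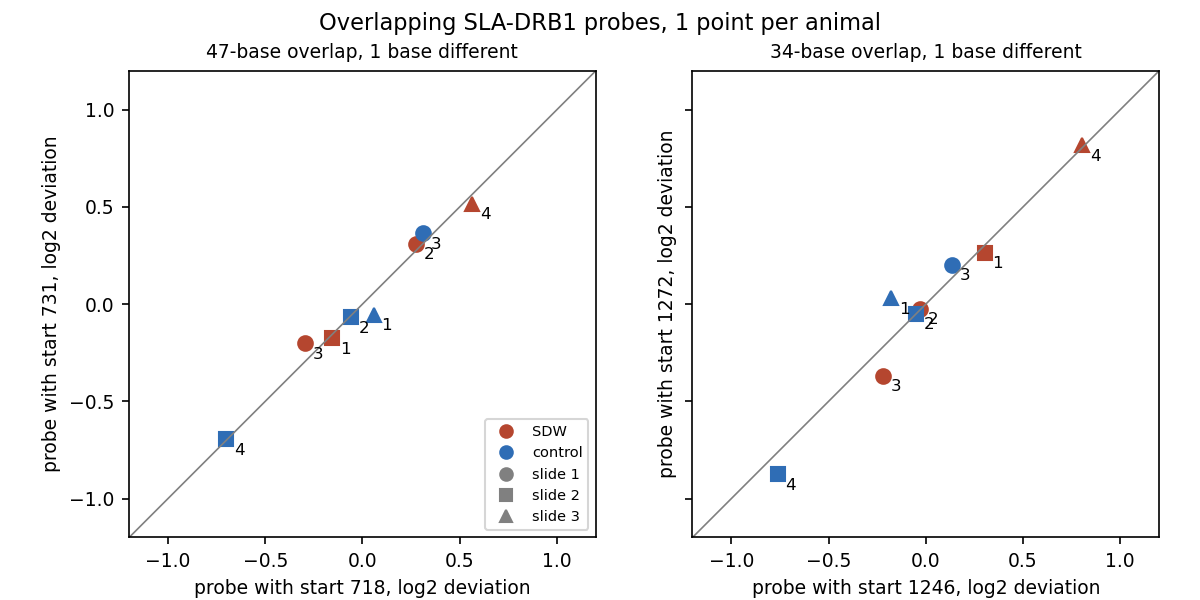
Deviation from the probe's own mean, in log2 units, at 1 probe against the other of each overlapping SLA-DRB1 pair, with a numbered point for each animal (coloured by diet, shaped by slide) and the line of equality. The points of both pairs lie close to the line, with an SD of the gap of 0.0637 for starts 718 and 731 and of 0.111 for starts 1246 and 1272.

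SDW 1 read lower at the 5′ end than at the 3′ end of each class II transcript with probes at both. The deviation of the probe nearest the 5′ end minus that of the probe nearest the 3′ end was -0.64, 0.14, 0.12 and -0.01 for SLA-DRA in the SDW animals, against -0.08, 0.08, 0.03 and 0.36 in the control animals. For SLA-DRB1 it was -0.42 in SDW 1 and 0.18 in control 4, and for SLA-DMA -0.50 and 0.35. SDW 1 was the lowest animal for each of the 3 genes, and control 4 the highest for SLA-DRA and SLA-DMA. The SD of this gap over the 8 animals lay between 0.233 and 0.289 for the 3 genes, against a median SD of 0.506 over 513 other transcripts. The probes of those transcripts had to be above background on only 4 arrays, while the class II probes were above it on 8. The sets were not matched for brightness, so the lower SD is not read as a trait of class II. Over these 513, each with 2 kept probes at least 300 bases apart, the median gap was -0.29 in SDW 1, also the lowest of the 8 animals, and 0.16 in control 4. Because RNA is primed from the 3′ end in this kind of labelling, the balance between ends can move with RNA quality, and its part in the difference between the SLA-DRA probes was not tested.

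**Figure D5:**
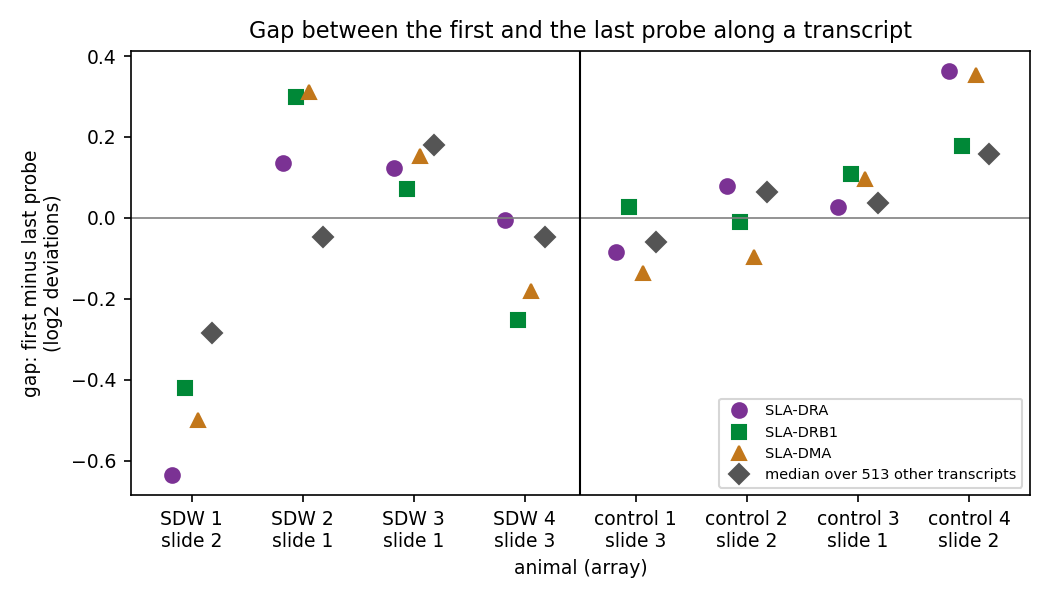
Deviation of the probe nearest the 5′ end minus that of the probe nearest the 3′ end, in log2 units, in each animal, SDW animals left of control animals, for SLA-DRA, SLA-DRB1, SLA-DMA and the median of 513 other transcripts. SDW 1 is the lowest animal in all 4 series, between -0.64 and -0.29.

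The genes that load, switch on and turn over class II molecules gave no probe past the adjusted threshold either. Among genes of loading and chaperones, 7 of 16 listed were named on the array, and all 7 had a kept probe. Of these, 2 had the higher mean in SDW animals and 5 the lower, and the median difference was -0.19. CD74, the invariant chain that holds the groove until DM acts, had a level of 1.18, 2.04, 2.25 and 3.91 in the SDW animals, against 3.88, 2.06, 2.82 and 1.73 in the control animals at its start 345 probe. Its 2 highest animals, SDW 4 and control 1, are the pair on slide 3, and slide accounted for 89.4% of its variance, against a median of 26.0% for the class II chains. Of 15 listed transcription factors only 3 were named on the array. A kept probe was found for 2, CREB1 and SPI1, both with the lower mean in SDW animals. CIITA, the master activator of class II genes, had no kept named probe. Turnover and partner genes had 2 higher and 4 lower of 6 kept, and interferon gamma signalling, which is known to raise class II transcription, had 3 higher and 3 lower of 6 kept, with a median of -0.04.

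Markers of the blood cells that carry class II molecules are given beside these results. CD72, a surface protein of B cells, had a difference of -0.20 and did not pass the test. For dendritic cells 5 of 16 were named on the array. All 5 had a kept probe and the lower mean in SDW animals. Their differences ran between -0.03, at SIRPA, and -1.16, at LY75. The score, the mean deviation over the kept genes, ran between -0.47 and 0.10 in SDW animals and between -0.002 and 0.47 in control animals. LY75 weighs most in the score difference between the diets.

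LY75, an endocytic receptor of dendritic cells, had the smallest unadjusted p of that list, with a difference of -1.16 (limma, unadjusted p = 0.00112), and it did not pass the adjusted threshold. It was well above background on 3 of 4 SDW arrays and 4 of 4 control arrays, so 1 SDW array gives only a bound. For monocytes 8 of 16 were named on the array and 7 had a kept probe, 4 higher and 3 lower. CCR2, a chemokine receptor of monocytes, had the smallest unadjusted p among them, with a difference of 0.88 (limma, unadjusted p = 0.00474, adjusted p = 1.00). The monocyte score ran between -0.37, in SDW 1, and 0.56, in SDW 2, among SDW animals and between -0.24 and 0.29 in control animals. FCGR1A, 1 of the 7 genes in it, was above background on only 4 of 8 arrays. Its level was -4.93 in SDW 1 and 1.26 in SDW 2, so both ends of the SDW range rest largely on this gene. T cell genes were 3 higher and 3 lower of 6 kept, platelet genes 4 higher and 2 lower of 6, and neutrophil genes 0 higher and 6 lower of 6, with a median of -0.70. The part of any of these cell types in the class II values was not tested.

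The gene whose levels over the 8 arrays were most like those of SLA-DQB1, among 1081 named genes searched, was NEU1, a lysosomal sialidase. Its Pearson r was 0.948, its Spearman rho 0.952 and its r after removal of the slide means 0.965. Without control 3 and SDW 3, the 2 animals farthest from the SLA-DQB1 median, r was 0.916. The level of NEU1 was 0.17, 0.33, -0.21 and 1.32 in the SDW animals, against 1.28, 0.97, 1.47 and 0.24 in the control animals, so its lower animals were SDW 1, SDW 2, SDW 3 and control 4, as for SLA-DQB1. Its difference was -0.58. The next 4 were GNLY (r = 0.844), the cytotoxic granule protein granulysin, TNFRSF1A (0.808), a receptor for tumour necrosis factor, RETN (0.804), the secreted protein resistin, and ACRBP (0.792), with r measured over the same 8 arrays.

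The same search was made against the class II genes together, as a mean of 4 correlations, which is not comparable with a single one. The 5 genes with the highest mean r to the leading probes of SLA-DMA, SLA-DQB1, SLA-DRA and SLA-DRB1 were KDM5C, SLC11A1, ADM5, TKT and RTCB, at 0.695, 0.695, 0.694, 0.690 and 0.677. All of these correlations are descriptions over 8 arrays that share labelling and slides, chosen as the highest of many, and are given without a p.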

How the data were processed

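Whole blood RNA of 8 animals was labelled with Cy3 and hybridised to 1 Agilent array per animal. The authors deposited scanner files of spot intensities from Agilent's Feature Extraction software. Its version reads 10.1.1.1 in the headers of the files but 9.5.3.1 in the submitters' processing notes. The processed signal had its background subtracted and was detrended within each array, per the file headers. The authors' deposited value table, with intensities made by a method not given in the sources used here, served as an alternative, and 7 of its 8 columns matched another replicate of the same diet.

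Outlier and control spots were removed, repeated spots of a probe averaged, and each array's 75th percentile subtracted on the log2 scale. Probes well above background on at least 4 arrays were kept and compared in R 4.3.3 with limma 3.58.1 (two-sided, Benjamini-Hochberg over 17352 probes, no covariate). The code of the fit was run on simulated data with independent noise and no slide effect, so that run says nothing about the part of slide. Replicate numbers name the scanner files. Alternatives changed the background correction, scaling, filter, slide, replicate block and animals, and each animal was left out in turn. The p-values set a difference against the spread between these animals, and the number of animals limits the precision. Nothing says how the animals were allotted or housed, so diet cannot be told apart from allotment or housing. A gene with several probes was read from each of them, and its leading probe is the brightest. Named genes are every kept class II probe, the 5 genes most like SLA-DQB1 and the 5 most like all class II genes by r, and list members. Where a gene outside this rule is named, it was chosen after its values were seen. Names came from the files and a pig gene table. No genome or promoter sequence was used, so positions and promoter motifs are not analysed here. The members and lists were chosen with earlier results of these data known. Of the genes set by the rule, 1 is not reported here, nor is the list score that rests on it.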

Additional observations from a re-analysis of the deposited data

Results flagged for a closer look

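SLA-DQB1 in SDW 4 stood apart from the other SDW animals. Its level was 8.68, while the nearest of the other 3 was at 7.12. The gap was 0.851 of the range of the SDW group, above Dixon's critical value for 4 samples. This was 1 of 26 groups checked over the 13 kept class II probes, and chance gives about 1 group in 20. SDW 4 shares slide 3 and its scan day with control 1.

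TC260249, found by its description only and outside the comparison of the diets, was well above background on 2 SDW arrays and on 0 control arrays. A level or a fold is not given for it, since neither diet was measured above background on all arrays.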

How the results depend on the processing

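Over all kept probes, the count with an adjusted p under 0.05 in limma was 0 under every alternative run except that without both arrays of slide 3, where it was 1. That probe is not of class II, and SLA-DQB1 had an adjusted p of 0.998 there. The median difference over the kept class II probes was -0.32 within slide 1 and that over the leading probes -0.26 there. With each animal left out in turn the first lay between 0.031 and 0.34 and the second between 0.054 and 0.44. Within slide 1, with 3 animals, the sign turned for SLA-DRA start 1303 (-0.55), SLA-DMA start 998 (-0.11) and SLA-DRB1 starts 718 (-0.32), 731 (-0.31), 897 (-0.13), 1246 (-0.26) and 1272 (-0.40). Within slide 3, with 1 animal a diet, it turned for SLA-DQB1 (0.31), SLA-DRA starts 395 (0.47), 1020 (0.23) and 1148 (0.24) and TC286985 (-2.46). With array weights SLA-DRA start 1303 was at -0.027. With single animals left out the ranges that crossed 0 were -0.19 to 0.031 for SLA-DRA start 395, -0.24 to 0.089 for start 1020, -0.22 to 0.044 for start 1148, -0.090 to 0.25 for start 1303 and -0.0066 to 0.33 for SLA-DRB1 start 718. The cause of these changes was not tested. The pairing of the labels' replicate numbers was checked by the correlation of deviations, at -0.17, 0.11, 0.33 and -0.38, so the numbers were not taken to pair the animals. With them as a replicate block the SLA-DQB1 difference was -1.06 (limma, SE 0.54, adjusted p = 1.00), the count of calls was 0, and the median stayed at 0.21. Numbered as in the authors' deposited value table, the animals gave correlations of 0.28, 0.25, 0.51 and 0.64, all positive. Of these pairs, SDW 2 with control 3 (0.28) and SDW 1 with control 2 (0.51) share a slide. So do SDW 4 and control 1 (0.64), while SDW 3 and control 4 (0.25) do not. Under the labels' numbers only the pair at 0.33 shares a slide, so slide and pairing cannot be told apart here. With the value table's numbers as the replicate block the SLA-DQB1 difference was -1.06 with an adjusted p of 0.895 in limma. Probes near background, as TC286985 is on 2 arrays, have the least certain levels.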

Other observations

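NEU1, the gene most like SLA-DQB1 over the 8 arrays, lies on the same chromosome in the pig gene table of assembly Sscrofa11.1, in the MHC region, with 37 protein-coding genes between it and SLA-DQB1. After this was seen, the other genes of the region between SLA-1 and SLA-DOA were looked up. Of these, 23 had a kept named probe, and 42 probes read them. Their median Pearson r with SLA-DQB1 over the 8 arrays was 0.443, against 0.0739 over the 1665 kept named probes outside class II, and 12 of the 42 had an r above 0.5, against 11.4% of those 1665 probes. These are descriptions over 8 arrays that share slides and labelling, and neighbouring genes are not independent of each other. Some genes, such as SLA-1, SLA-3 and TUBB, are read by several of the 42 probes, so these are not 42 separate observations. Most of the probes with an r above 0.5 had their highest levels in SDW 4 and control 1, the pair on slide 3. An SLA-3 probe with an r of 0.715 was at 7.88 and 8.64 there, against 7.73 in control 3, the next highest. The TNF, APOM, EHMT2 and PSMB8 probes above that limit did not have this order. One gene could also read both ways, as the r of the SLA-1 probes ran between -0.72 and 0.51. The slide means were not removed for these correlations, and the part of slide in them was not tested.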
